A study of Mus musculus with 2 samples.

Results

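The nutrient carriers described here were chosen by name, as every gene in the expression table of neonatal mouse lingual epithelium whose symbol is *Slc2a*, *Slc7a*, *Slc16a* or *Slc38a* followed by a number. The rule found 53 of 21628 entries. Of these, 52 are carriers (12 *Slc2a*, 15 *Slc7a*, 14 *Slc16a* and 11 *Slc38a* genes), and the other is *Slc7a6os*, a gene beside *Slc7a6* on the opposite strand that is not a transporter. *Slc7a6os* had an FPKM of 40.7 in GFP-high against 45.7 in GFP-low cells and was left out of the counts of carriers.

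Cells take up sugars, amino acids and small organic acids through membrane carriers of the solute carrier (SLC) superfamily. The *Slc2a* genes encode the facilitative sugar carriers known as GLUTs, the *Slc7a* genes carriers of cationic amino acids and the light chains of amino acid exchangers, the *Slc16a* genes the monocarboxylate carriers known as MCTs, and the *Slc38a* genes sodium-coupled carriers of small neutral amino acids. Light chains of the exchangers reach the plasma membrane only when paired with a heavy chain, *Slc3a2* or *Slc3a1*, and several MCTs need basigin (*Bsg*) or embigin (*Emb*) in the same way. In stratified epithelia, which have no vessels of their own, nutrients reach basal cells from the underlying connective tissue, and glucose and lactate carriers are abundant there.

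The study compared SOX2-GFP-high with SOX2-GFP-low cells at postnatal day 0 (P0) to find genes that go with the activation of taste progenitors. Both groups came from lingual epithelium of P0 mice of the genotype *Sox2*GFP, in which GFP reports *Sox2*, with no treatment named for either group, and about 100000 cells were sorted for each. The populations are bins cut from a continuous SOX2-GFP signal in cells pooled from pups of several litters, so each library is 1 pool of animals. There is 1 library per population, so no difference below has a replicate check and no p-value is given.

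Values are FPKM, fragment counts divided by transcript length and by the fragments mapped in the library, and can be set side by side between genes. A gene was called higher in a population at 5 FPKM or more there and a ratio of at least 1.5 between the libraries. Of the 22 carriers at 5 FPKM or more in both libraries, 3 were called higher in GFP-high cells and 8 higher in GFP-low cells. Over all entries, asking 5 FPKM of both libraries gave 777 and 633 calls in these directions. The entries at 5 FPKM or more in both were not counted, so these calls have no share to set beside those of the carriers. By the rule itself, 9.48% and 8.9% of the 10760 entries at 5 FPKM or more in either library were called. Of the 25 carriers at that level, 4 and 9 were called. In bulk RNA, more cells that express a gene and more RNA per cell cannot be told apart. *Sox2* itself, the gene behind the sort, had 112 FPKM in the GFP-high and 59.0 in the GFP-low library, a 1.90-fold difference. The basal keratinocyte markers *Krt5* (9667 FPKM in the GFP-high and 10422 in the GFP-low library) and *Krt14* (6672 and 9635) were abundant in both libraries. Markers of other cells also differed between them. Of 10 fibroblast genes, 6 were called higher in GFP-low cells and none in GFP-high cells, with a summed level of 509 FPKM in GFP-high against 2295 in GFP-low cells. Of 7 Schwann cell genes, 5 were called higher in GFP-low cells and none in GFP-high cells (89.7 and 311 FPKM summed), and the Schwann lineage regulator *Sox10* had an FPKM of 0.51 in the GFP-high and 42.7 in the GFP-low library. Of 7 erythroid genes, 3 were called higher in GFP-high cells and none in GFP-low cells (118 and 41.0 FPKM summed). Of 6 general taste bud genes, 5 were called higher in GFP-high cells (483 and 242 FPKM summed), as were 5 of 8 suprabasal keratinocyte genes, while 1 of 7 basal keratinocyte genes was called higher in GFP-low cells. Markers of mature taste cells were mostly low, and those called went the other way, with *Entpd2* (23.7 and 42.2 FPKM) and *Slc1a3* (8.38 and 34.2) of 3 type I genes and *Ncam1* (7.64 and 11.8) of 7 type III genes higher in GFP-low cells. None of 8 type II genes was called, *Itpr3* being at 97.4 and 140 FPKM. The part these cells have in the differences between carriers was not tested.

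Each family had a few members at high FPKM and a tail near 0. Of the 52 carriers, 3 were at 100 FPKM or more in the library with the higher value (*Slc2a1*, *Slc38a2* and *Slc7a5*), 16 were between 10 and 100, 6 between 5 and 10, 9 between 1 and 5, and 12 were above 0 in both libraries but under 1. Another 4 are listed at 0 in both libraries (*Slc2a2*, *Slc7a12*, *Slc7a13* and *Slc7a15*), and 2 are listed at 0 in one of them (*Slc38a5* and *Slc38a11*). *Slc2a1* ranked 618th of all entries by FPKM in GFP-high cells and 1062nd in GFP-low cells, and *Slc38a2* ranked 781st and 754th.

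**Figure D1:**
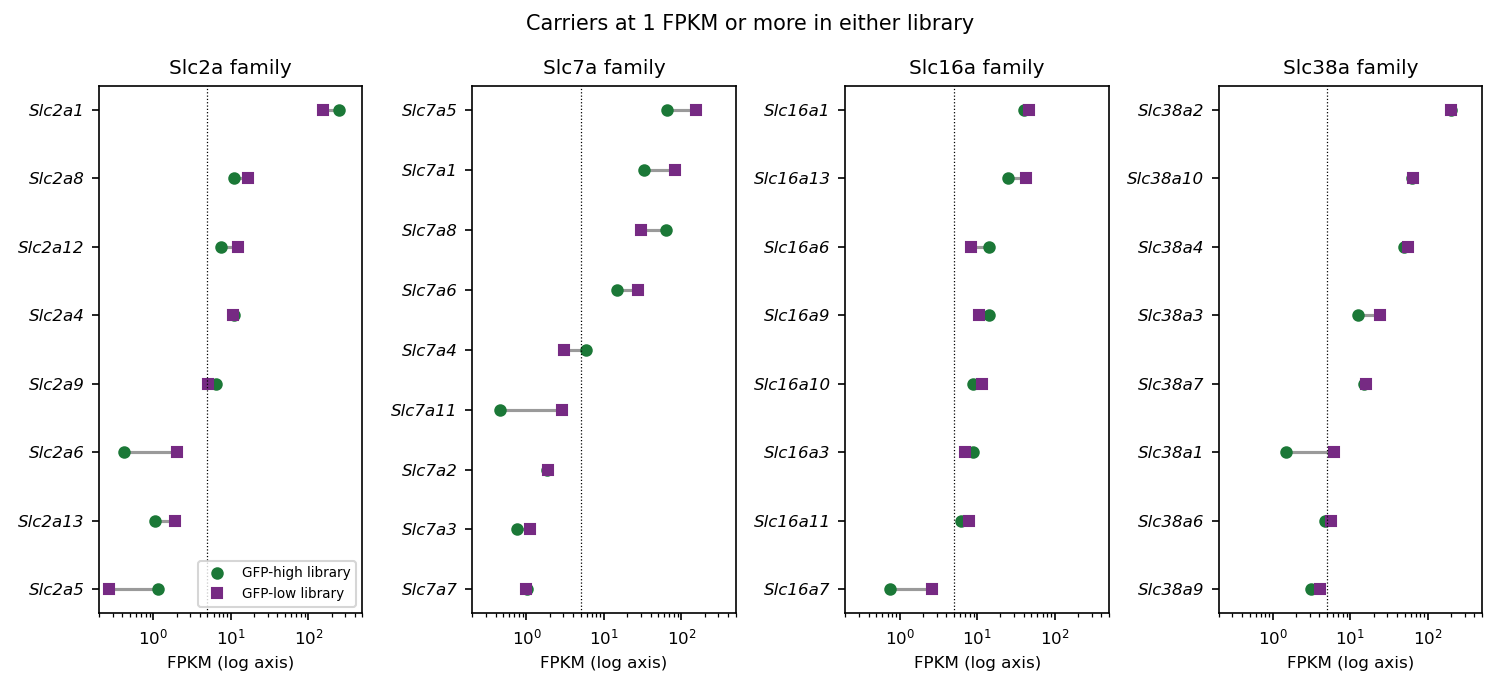
FPKM on a log axis for the carriers at 1 FPKM or more in either library that are described by name, by family, with a circle for the GFP-high and a square for the GFP-low library, 1 library each, and a dotted line at 5 FPKM. *Slc2a1* (247 and 156 FPKM) and *Slc38a2* (202 in both) stand at the top of their families, and the widest gaps are those of *Slc7a11*, *Slc2a6*, *Slc2a5* and *Slc38a1*.

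By the rule above, 4 carriers were called higher in GFP-high cells (*Slc7a8*, *Slc7a4*, *Slc16a6* and *Slc2a1*) and 9 in GFP-low cells (among them *Slc38a1*, *Slc7a1*, *Slc7a5*, *Slc38a3*, *Slc7a6*, *Slc16a13*, *Slc2a12* and *Slc2a8*). Of all 17283 entries above 0 in either library, 5.9% were called higher in GFP-high cells and 5.54% higher in GFP-low cells, beside these 4 and 9 of 48 carriers above 0. Among entries at 5 FPKM or more in either library, the shares were 9.48% and 8.9% of 10760, against 4 and 9 of the 25 carriers at that level. With both libraries brought to the same FPKM sum (the TPM scale), the counts over all entries moved from 1020 and 958 to 807 and 1219, and those of carriers to 3 and 9. The call rule acts through the higher library, so these 25 are not a sample of all carriers. Of the same 25, 9 had the higher value in the GFP-high and 16 in the GFP-low library, beside 44.6% and 55.4% of all entries at that level. The median log2 ratio of GFP-high to GFP-low was −0.30 over the 46 carriers above 0 in both libraries, and −0.03 over all 15928 such entries. Folds were modest, with a median of 1.81 among the carriers called higher in GFP-high cells and 1.85 among those called higher in GFP-low cells. Over all entries called in the same direction the medians were 1.91 and 1.97.

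**Figure D2:**
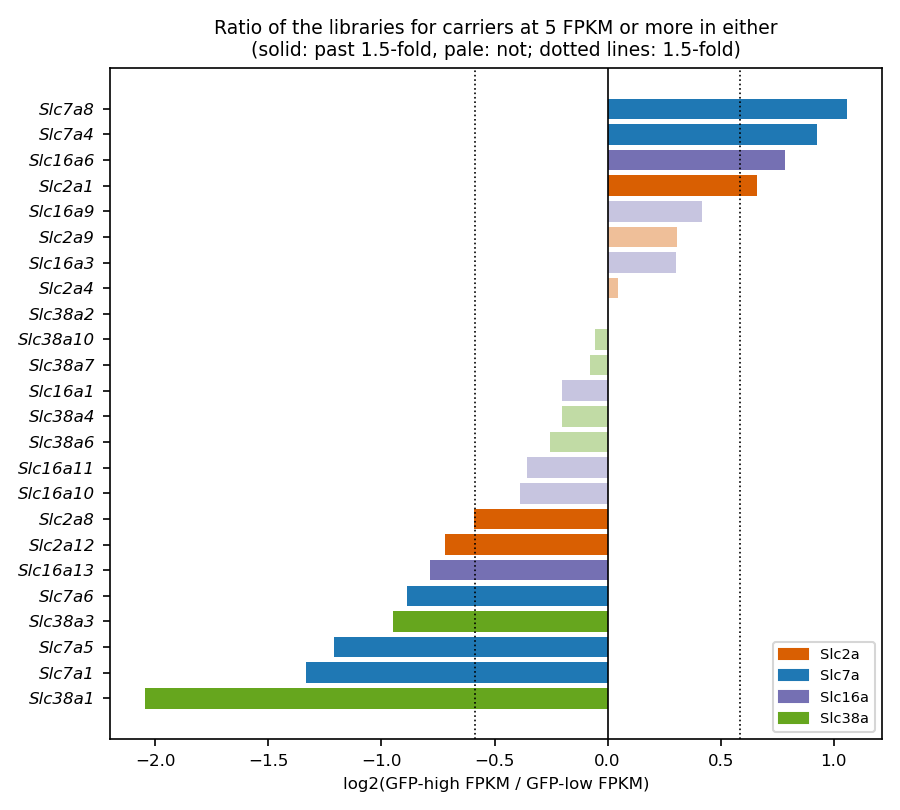
Bars give the log2 ratio of GFP-high to GFP-low FPKM (1 library each) for the carriers at 5 FPKM or more in either library that are described by name, coloured by family, solid where the ratio passed 1.5-fold and pale where it did not. *Slc7a8* (1.06) is at the top and *Slc38a1* (−2.05) at the bottom, and the 3 *Slc7a* genes higher in GFP-low cells lie between −1.33 and −0.89.

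**Figure D3:**
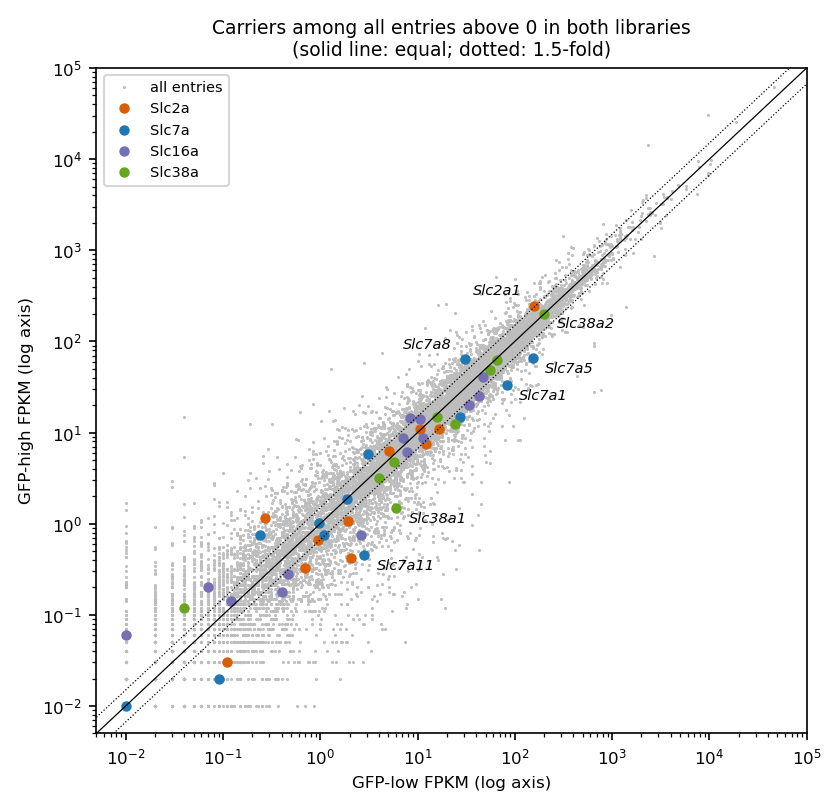
GFP-high against GFP-low FPKM on log axes for all entries above 0 in both libraries (grey) and for the carriers (coloured by family), with lines at equal values and at 1.5-fold. Of the carriers labelled by name, *Slc7a5*, *Slc7a1*, *Slc38a1* and *Slc7a11* lie below the 1.5-fold lines and *Slc7a8* and *Slc2a1* above them.

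In the *Slc2a* family, the main glucose carrier was higher in GFP-high cells and 2 class III carriers were higher in GFP-low cells. *Slc2a1* (ENSMUSG00000028645, mm10 chromosome 4, 119108711–119137983) encodes GLUT1, which carries basal glucose uptake in many epithelia and in red cells. It had an FPKM of 247 in GFP-high against 156 in GFP-low cells, a 1.58-fold difference. It was the most abundant of the carriers in GFP-high cells and held 86.2% of the summed *Slc2a* FPKM there, and 75.6% in GFP-low cells. On the TPM scale its log2 ratio was 0.56, below the threshold of 0.585. Haemoglobin transcripts moved with it, *Hbb-bs* being at 63.9 FPKM in the GFP-high and 23.0 in the GFP-low library. Their part in the *Slc2a1* difference was not tested.

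The other class I carriers were far below *Slc2a1*. *Slc2a4*, which encodes the insulin-responsive GLUT4, had 11.0 FPKM in GFP-high against 10.6 in GFP-low cells, a log2 ratio of 0.05 that turned to −0.05 on the TPM scale. *Slc2a3*, the GLUT3 gene known from neurons, had 0.66 and 0.94 FPKM. *Slc2a2*, the GLUT2 gene of liver and pancreatic islets, is listed at 0 in both. Thus *Slc2a1* was 22.5 times *Slc2a4* in the GFP-high and 14.7 times in the GFP-low library, and no other glucose carrier of this class reached 1 FPKM.

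Class III carriers, which mostly reside on intracellular membranes, all had their higher value in GFP-low cells. *Slc2a8* (chromosome 2, 32972990–32982083), which encodes GLUT8, had 11.0 FPKM in GFP-high against 16.5 in GFP-low cells. Its ratio of 1.504 was the closest to the threshold of any called carrier, and it missed the threshold with a pseudocount of 1 or 0.1 FPKM or after scaling by the median ratio of all genes. Among carriers at 5 FPKM or more that missed the threshold, the nearest were *Slc16a9* at 1.34 and *Slc16a10* at 1.31. *Slc2a12* (chromosome 10, 22645011–22704285), the GLUT12 gene, had 7.5 and 12.3 FPKM, 1.65-fold higher in GFP-low cells, and shares 8.55% of its 50-nt windows with *Tbpl1* (31.5 and 39.5 FPKM). The other members of the class were too low to be called. *Slc2a6* had 0.42 FPKM in the GFP-high and 2.05 in the GFP-low library, the proton-coupled inositol carrier gene *Slc2a13* had 1.06 and 1.92, and *Slc2a10* had 0.33 and 0.69.

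Class II carriers of fructose and urate ran the other way or were near 0. *Slc2a9*, which encodes a urate carrier, had 6.35 FPKM in GFP-high against 5.14 in GFP-low cells, a 1.24-fold difference. The fructose carrier gene *Slc2a5* had 1.16 and 0.27 FPKM, and *Slc2a7*, 4.80 kb from it on the same strand of chromosome 4, had 0.03 and 0.11.

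In the *Slc7a* family all 5 genes at 5 FPKM or more were called, 3 higher in GFP-low and 2 higher in GFP-high cells. Of all entries at that level, 8.9% were called higher in GFP-low and 9.48% higher in GFP-high cells. Of the 5 genes, *Slc7a4* loses its call where 5 FPKM is asked of both libraries. The summed FPKM of the family was 187 in the GFP-high and 303 in the GFP-low library, the widest gap of the 4 families on a ratio scale (1.62-fold).

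The light chains of heteromeric exchangers differed in opposite directions. *Slc7a5* (ENSMUSG00000040010, chromosome 8, 121881150–121907694) encodes LAT1, which exchanges intracellular glutamine for leucine and other large neutral amino acids. It had an FPKM of 65.8 in GFP-high against 152 in GFP-low cells, 2.32-fold higher in the latter. *Slc7a8* (ENSMUSG00000022180, chromosome 14, 54722209–54781946) encodes LAT2, an exchanger of overlapping but broader neutral amino acid range, and had 63.4 FPKM in the GFP-high and 30.4 in the GFP-low library, a 2.08-fold difference. The predicted locus *Gm20388*, for which the table has no value, spans *Slc7a5* on the other strand. The pair of exchangers stood at near equal FPKM in GFP-high cells, with 1.04 *Slc7a5* per *Slc7a8*, and at 5.01 to 1 in GFP-low cells. As shares of the family, *Slc7a5* held 35.1% in GFP-high against 50.3% in GFP-low cells, and *Slc7a8* 33.8% and 10.04%.

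*Slc7a6* (chromosome 8, 106168857–106198706), which encodes an exchanger of cationic for neutral amino acids, had 14.7 FPKM in the GFP-high and 27.2 in the GFP-low library, 1.85-fold higher in the latter. Its close relative *Slc7a7* was near 1 FPKM in both libraries (1.02 and 0.98), with a log2 ratio of 0.06 that turned to −0.04 on the TPM scale. *Slc7a11*, which encodes the cystine and glutamate exchanger xCT, had 0.45 FPKM in GFP-high against 2.83 in GFP-low cells. That ratio of 6.29 was wider than any among the called carriers, but both values are under 5 FPKM. *Slc7a10*, the small neutral amino acid exchanger Asc-1, had 0.75 and 0.24 FPKM, and *Slc7a9*, the partner of *Slc3a1*, had 0.02 and 0.09.

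The common heavy chain differed less between the libraries than each of its light chains that were called. *Slc3a2*, which encodes the heavy chain known as CD98, had 130 FPKM in the GFP-high and 181 in the GFP-low library, 1.40-fold higher in the latter and not called. The 6 light chains that pair with it (*Slc7a5*, *Slc7a6*, *Slc7a7*, *Slc7a8*, *Slc7a10* and *Slc7a11*) summed to 146 FPKM in GFP-high against 214 in GFP-low cells, which is 1.13 and 1.18 light chain FPKM per heavy chain FPKM. The proportion of light to heavy chain was thus close in both libraries, while the light chains that made it up differed. The other heavy chain gene, *Slc3a1*, had 0.63 and 0.42 FPKM.

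In the cationic branch, *Slc7a1* (ENSMUSG00000041313, chromosome 5, 148327410–148399904) encodes CAT1, the widespread carrier of arginine, lysine and ornithine. It had 32.9 FPKM in the GFP-high and 82.9 in the GFP-low library, 2.52-fold higher in the latter and the widest ratio among carriers over 10 FPKM. The next member, *Slc7a4* (chromosome 16, 17572018–17583214), is related to the cationic carriers by sequence and is a poorly understood member of the branch. It had 5.86 FPKM in GFP-high against 3.08 in GFP-low cells, a 1.90-fold difference just over the minimum, and its call is lost with a minimum of 10 FPKM or of 5 in both libraries. *P2rx6* overlaps *Slc7a4* by 5783 nt on the opposite strand and was at 0.12 and 0.10 FPKM. *Slc7a2* (1.86 and 1.88 FPKM), *Slc7a3* (0.76 and 1.10) and *Slc7a14* (0.01 in both) were low, so that *Slc7a1* made up 79.5% of the branch in the GFP-high and 93.2% in the GFP-low library.

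**Figure D4:**
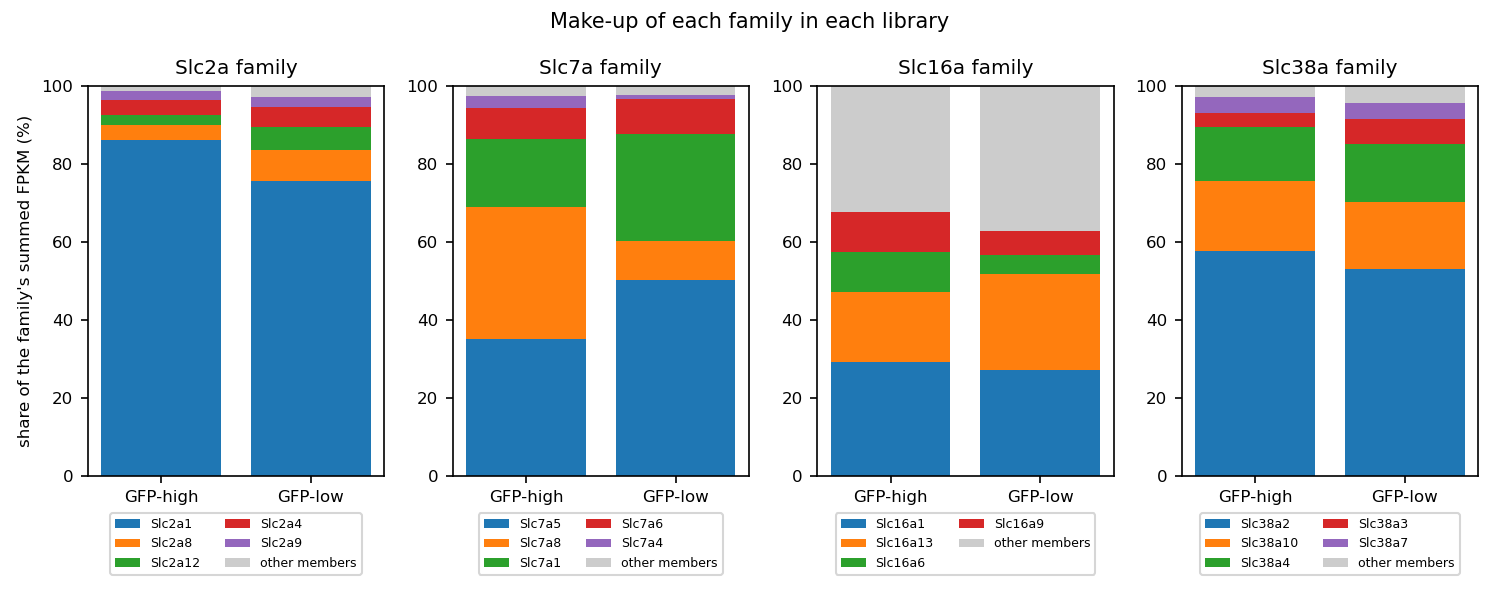
Stacked bars give each carrier's share of its family's summed FPKM in the GFP-high and the GFP-low library (1 library each), for 4 or 5 of the more abundant members of each family, with all others in grey. The widest difference in any share is that of *Slc7a8*, at 33.8% and 10.04%, while *Slc2a1* (86.2% and 75.6%) and *Slc38a2* (57.6% and 53.2%) lead their families in both.

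In the *Slc16a* family, the lactate carrier genes at 5 FPKM or more, *Slc16a1* and *Slc16a3*, differed by less than 1.5-fold between the populations. Less studied members, *Slc16a6* and *Slc16a13*, were called. *Slc16a1* (chromosome 3, 104638668–104658462) encodes MCT1, a proton-linked carrier of lactate, pyruvate and ketone bodies, and had 40.7 FPKM in GFP-high against 46.7 in GFP-low cells. *Slc16a3*, which encodes the lactate exporter MCT4, had 8.73 and 7.07 FPKM, so that *Slc16a1* was 4.66 times *Slc16a3* in the GFP-high and 6.61 times in the GFP-low library. Neither gene passed 1.5-fold, and they had their higher values in opposite libraries. *Slc16a7*, the MCT2 gene, had 0.76 FPKM in GFP-high against 2.60 in GFP-low cells, and *Slc16a8*, the MCT3 gene known from retinal pigment epithelium, had 0.14 and 0.12.

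The ancillary proteins of these carriers were at similar levels in both libraries. *Bsg* had 644 FPKM in the GFP-high and 657 in the GFP-low library, which is 12.8 and 11.6 times the summed FPKM of the 4 proton-linked carriers. *Emb* had 32.0 and 30.7 FPKM.

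*Slc16a10*, which encodes a carrier of aromatic amino acids that also moves thyroid hormone, had 8.74 FPKM in GFP-high against 11.4 in GFP-low cells and was not called. Of 7 other genes of thyroid hormone handling, 4 were at 5 FPKM or more. Of all entries at that level, 9.48% were called higher in GFP-high and 8.9% higher in GFP-low cells. Of the 4 genes, 1 was called, higher in GFP-low cells. This was *Dio2*, the deiodinase that makes active hormone, at 6.15 FPKM in the GFP-high and 16.6 in the GFP-low library. *Dio3*, which inactivates the hormone, had 94.2 and 103 FPKM, and the receptor gene *Thra* 77.9 and 73.5. The log2 ratios of the 4 genes of this list at 5 FPKM or more had a median of −0.02, against −0.04 over all entries at that level.

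Among the remaining *Slc16a* genes, *Slc16a13* (chromosome 11, 70216789–70221064) had 24.9 FPKM in GFP-high against 42.8 in GFP-low cells, 1.72-fold higher in the latter. Its neighbour *Slc16a11* ends 0.371 kb away on the opposite strand and had 6.13 and 7.84 FPKM, also higher in GFP-low cells but not called. *Slc16a6* (chromosome 11, 109450855–109473598), which encodes a carrier linked to ketone body export, had 14.4 FPKM in the GFP-high and 8.36 in the GFP-low library, a 1.72-fold difference. That value is uncertain, since 21.2% of the 50-nt windows of its transcripts also occur in other genes, among them the overlapping *Amz2* on the opposite strand, which was at 52.5 and 56.5 FPKM. *Slc16a9*, which encodes a carnitine carrier, had 14.2 and 10.6 FPKM, 1.34-fold higher in GFP-high cells, with 19.0% of its windows shared. *Slc16a4*, *Slc16a5*, *Slc16a12* and *Slc16a14* were under 0.5 FPKM in both libraries.

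The *Slc38a* family was led by a gene at the same level in both populations, and the 2 members that were called were higher in GFP-low cells. *Slc38a2* (ENSMUSG00000022462, chromosome 15, 96687392–96699730) encodes SNAT2, the system A carrier that many cells induce when amino acids are short. It had 201.7 FPKM in GFP-high against 201.5 in GFP-low cells, a log2 ratio of 0.00 that became −0.10 on the TPM scale. *Slc38a4*, another system A gene, had 48.8 and 56.2 FPKM. The third, *Slc38a1* (ENSMUSG00000023169, chromosome 15, 96571418–96642913), encodes the glutamine carrier SNAT1 and had 1.47 FPKM in the GFP-high and 6.07 in the GFP-low library, 4.13-fold higher in the latter and the widest ratio of any called carrier, though the call is lost where 5 FPKM is asked of both libraries or the minimum is 10. *Slc38a1* and *Slc38a2* are adjacent on the same strand, 44.5 kb apart with no protein-coding gene between them, yet *Slc38a2* was 137 times *Slc38a1* in GFP-high against 33.2 times in GFP-low cells.

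Of the system N carriers, which move glutamine, histidine and asparagine in exchange for protons, only *Slc38a3* passed 5 FPKM. *Slc38a3* (chromosome 9, 107650634–107669530), the SNAT3 gene, had 12.6 FPKM in the GFP-high and 24.2 in the GFP-low library, 1.93-fold higher in the latter. *Slc38a5* was at 0.02 FPKM in GFP-high cells and at 0 in the other library.

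The organelle and less studied *Slc38a* genes were nearly level. *Slc38a10* had 62.7 FPKM in GFP-high against 65.1 in GFP-low cells, *Slc38a7*, which encodes a lysosomal glutamine carrier, had 14.98 and 15.82, and *Slc38a9*, whose product senses lysosomal arginine for mTORC1, had 3.14 and 4.05. All had the higher value in GFP-low cells, with ratios of 1.29 or less. *Slc38a6* had 4.78 and 5.70 FPKM, an uncertain value because 35.5% of its windows also occur in other genes, among them *Noct*. *Slc38a11*, at 0 in GFP-high cells, reached 0.27 FPKM in the other library, and *Slc38a8* had 0.04 FPKM in GFP-low and 0.12 in GFP-high cells.

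Other uptake systems for the same nutrients were examined as gene lists. Of 6 sodium-glucose cotransporter genes, the 2 at 5 FPKM or more were both called higher in GFP-high cells, the direction of *Slc2a1*. *Slc5a1*, which encodes the sodium-glucose cotransporter SGLT1 of the gut, had 23.7 FPKM in the GFP-high and 15.1 in the GFP-low library, a 1.57-fold difference whose call was lost on the TPM scale. *Slc5a9*, which encodes a cotransporter of mannose and related sugars, had 22.1 and 9.01 FPKM, a 2.45-fold difference. Of 14 genes of the hypoxia response, 13 were at 5 FPKM or more. Of these, 4 were called higher in GFP-high cells (*Ndrg1*, *Eno1*, *Adm* and *Pgk1*) and 1 in GFP-low cells (*Epas1*, which encodes a hypoxia-inducible factor). The shares over all entries at that level were 9.48% and 8.9%. On the TPM scale the calls of *Eno1* and *Pgk1* were lost, which leaves 2 and 1. Over all entries that scale moved the calls from 1020 and 958 to 807 and 1219. *Ndrg1*, a stress-responsive gene, had 173 and 90.2 FPKM, and *Adm*, which encodes adrenomedullin, had 94.8 and 40.8. The glucose-uptake inhibitor *Txnip* was at 661 FPKM in GFP-high against 747 in GFP-low cells, and its relative *Arrdc4* was called, at 42.9 and 26.5 FPKM.

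Of 24 other plasma membrane amino acid carrier genes, 10 were at 5 FPKM or more, with 2 called in each direction. Of all entries at that level, 9.48% were called higher in GFP-high and 8.9% higher in GFP-low cells. *Slc1a5*, which encodes the glutamine carrier ASCT2, had 26.2 FPKM in the GFP-high and 39.4 in the GFP-low library, a ratio of 1.504 at the threshold. *Slc1a3*, the glutamate carrier of glia and of type I taste cells, had 8.38 and 34.2 FPKM, 4.09-fold higher in GFP-low cells. Higher in GFP-high cells were *Slc6a19*, the neutral amino acid carrier of gut and kidney (8.68 and 3.04 FPKM), and *Slc43a2*, which encodes a leucine carrier (5.15 and 2.65). *Slc43a2* lost its call on the TPM scale, and both lost it with 5 FPKM asked of both libraries. *Slc6a6*, the taurine carrier gene, had the highest FPKM of the list at 102 and 134 and was not called. The 10 genes had a median log2 ratio of −0.27.

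Genes that answer to amino acid supply did not run one way. Of 16 amino acid response genes, many of them targets of the transcription factor ATF4, 4 were called higher in GFP-high cells (*Atf3*, *Nupr1*, *Sesn2* and *Trib3*) and 1 in GFP-low cells (*Phgdh*, the entry enzyme of serine synthesis). The shares over all entries at 5 FPKM or more were 9.48% and 8.9%. *Atf3*, which is also an immediate early stress gene, had 1345 FPKM in GFP-high against 863 in GFP-low cells and lost its call on the TPM scale, as *Trib3* did with 5 FPKM asked of both libraries. *Atf4* itself had 471 and 329 FPKM, and *Asns*, asparagine synthetase, had 81.6 and 68.1. Over the 15 genes of the list at 5 FPKM or more the median log2 ratio was 0.16. The ATF4-responsive carriers *Slc7a5* and *Slc7a1* had log2 ratios of −1.21 and −1.33. Of other carriers that answer to amino acid shortage, *Slc38a2* had 0.00 and *Slc7a11*, under 5 FPKM in both libraries, −2.65. A link between the list and the carriers was not tested. Of 18 mTORC1 and amino acid sensing genes with values, 2 were called, both higher in GFP-high cells. They were *Sesn1* (92.3 and 54.7 FPKM) and *Sesn2* (15.5 and 5.67), whose products restrain mTORC1. *Sesn2* is the same gene that was counted in the amino acid response list. *Mtor* had 30.4 and 35.2 FPKM.

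Of 8 genes of glutamine metabolism, 3 were called higher in GFP-high cells and 1 higher in GFP-low cells, and glutamine synthetase had the highest FPKM. All 8 were at 5 FPKM or more in either library, where 9.48% and 8.9% of all entries were called in these directions. *Glul*, which makes glutamine from glutamate and ammonia, had 608 FPKM in the GFP-high and 286 in the GFP-low library, a 2.13-fold difference. The transaminase genes *Gpt* (66.7 and 42.5 FPKM) and *Gpt2* (20.6 and 9.09) were also called higher in GFP-high cells, and *Gls2* (3.52 and 8.62) in GFP-low cells. *Gpt* lost its call on the TPM scale and *Gls2* with 5 FPKM asked of both libraries. Of the *Slc38a* genes, the glutamine carriers *Slc38a1* (1.47 and 6.07 FPKM) and *Slc38a3* (12.6 and 24.2) had their higher values in GFP-low cells. The far more abundant *Slc38a2* (201.7 and 201.5) and the lysosomal glutamine carrier *Slc38a7* (14.98 and 15.82) were nearly level. A link between these carriers and *Glul* was not tested.

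**Figure D5:**
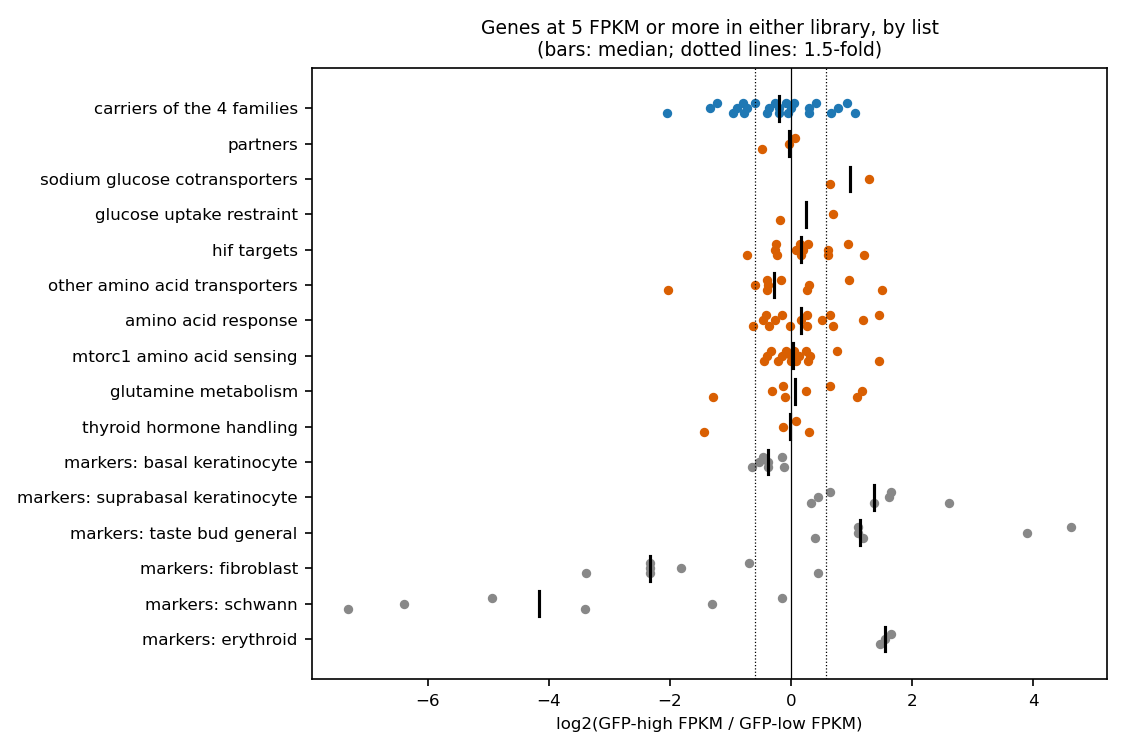
Points give the log2 ratio of GFP-high to GFP-low FPKM (1 library each) of the genes at 5 FPKM or more in either library, by list, with a bar at each median and dotted lines at 1.5-fold. The 25 carriers (blue) have a median of −0.20, between −0.27 for other amino acid carriers and 0.97 for sodium-glucose cotransporters (orange), and the fibroblast and Schwann cell markers (grey) lie far to the left at medians of −2.32 and −4.16.

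Promoters were searched for motifs tied to nutrient supply. Those of *Slc7a11* and *Slc2a1* are shown as examples that hold a match, xCT being known to answer to amino acid shortage and GLUT1 to hypoxia. Promoters of 37 of the 52 carriers were found in RefSeq (GRCm38.p6), each 300 nt long, from 250 before to 50 after the start. The amino acid response element, searched as TGATGNAA on both strands, was found in 2 of these 37 genes (*Slc7a7* and *Slc7a11*), and in 3.9% of the 15624 genes of the table with a promoter. The hypoxia response core, searched as ACGTG on both strands, was found in 12 of the 37 genes and in 23.7% of all. Some of its matches overlap on the opposite strands of CACGTG. The promoter of *Slc38a2*, which many cells also induce when amino acids are short, held neither motif in this window. The rest of the gene, beyond 50 nt after the start, was not searched, so its lack of a motif cannot be read from this. The called carriers with a promoter were *Slc2a1*, *Slc2a8*, *Slc2a12*, *Slc7a1*, *Slc7a6* and *Slc7a8*. Of these, *Slc2a1* and *Slc7a6* held ACGTG, and none held TGATGNAA. The other called carriers, *Slc7a5* among them, had no promoter to search.

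The *Slc7a11* promoter (chr3:50443564-50443863, minus strand) holds TGATGNAA on each strand, starting 66 and 47 nt before the start, in capitals. *Slc2a1* (chr4:119108495-119108794, plus strand) holds ACGTG at 36 nt before the start, in capitals.
Slc7a11: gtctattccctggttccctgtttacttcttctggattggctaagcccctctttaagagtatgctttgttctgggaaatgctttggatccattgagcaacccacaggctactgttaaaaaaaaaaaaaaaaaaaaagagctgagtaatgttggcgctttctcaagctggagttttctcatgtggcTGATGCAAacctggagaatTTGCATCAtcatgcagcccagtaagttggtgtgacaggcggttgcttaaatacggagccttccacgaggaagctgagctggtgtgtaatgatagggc
Slc2a1: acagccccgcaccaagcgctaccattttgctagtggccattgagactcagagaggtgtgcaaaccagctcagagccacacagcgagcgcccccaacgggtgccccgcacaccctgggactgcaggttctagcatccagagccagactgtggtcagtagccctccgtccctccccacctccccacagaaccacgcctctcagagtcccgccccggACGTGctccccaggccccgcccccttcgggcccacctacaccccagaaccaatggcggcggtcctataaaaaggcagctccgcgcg
These are matches of letters in a window, and binding was not measured. *Slc7a11*, with both matches, was low in either population (0.45 and 2.83 FPKM), and *Slc2a1* was the most abundant carrier in GFP-high cells (247 FPKM).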

How the data were processed

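RNA from 1 library each of GFP-high and GFP-low cells, made with a stranded kit, was read from a single end. Per the labels and the study's methods, the authors used Trimmomatic 0.36, GSNAP on mm10 and Cufflinks 2.2.1 to arrive at the FPKM they deposited, which carry 2 decimals. The gene annotation and the strand setting are not given in the sources used here. A signed fold score of the authors' own comparison, deposited beside the FPKM, was left unused.

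Entries that GENCODE M21 gives another type than protein-coding were dropped, which left 21607, of which 17 lack a number in a library and were not compared. Ratios were computed in Python 3.11.15 without a pseudocount, and a call asks for 5 FPKM in the higher library. The study's methods ask for it in each sample, which was run as an alternative. Its results instead describe a 5 FPKM cut-off together with a 1.5-fold excess over the other population. They name *Shh*, at 20.7 FPKM in the GFP-high and 0.84 in the GFP-low library, among the genes enriched in GFP-high cells. The code that makes the calls was checked on simulated data. A single library per population allows no test across genes. Low FPKM fell near multiples of what 1 read is worth for only 67.2% (GFP-high) and 56.9% (GFP-low) of 125 and 102 such values, within 0.15 of a whole read, so no counts were recovered and the depth behind each value is known only roughly. Windows of 50 nt were compared over GENCODE M21 transcripts on either strand, and 20% shared marks an uncertain value.

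The members, gene lists and cell type markers were chosen with earlier results of these data known. Named genes are the carriers called, those at 10 FPKM or more, the highest of each family, those near 1.5-fold or at 0, and, of the related lists, partners, called genes and the highest. *Slc2a3*, *Slc2a5*, *Slc2a6*, *Slc7a11* and other low carriers, as well as *Thra*, *Asns*, *Mtor* and overlapping genes, were named after their values were seen. One carrier that enters the counts is not reported here by name. Alternatives were FPKM minimums of 1, 10, none and 5 in both libraries, a 2-fold minimum, pseudocounts of 1 and 0.1, TPM, and scaling GFP-low by the median ratio (0.973). For the related lists, TPM and the minimum in both libraries were added after seeing the data.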

Additional observations from a re-analysis of the deposited data

How the results depend on the processing

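With 1 library per population, nothing was left out in turn. No paired analysis was possible because each population has a single library and the values come from no test. The 9 alternatives could not turn the direction of a called carrier, so its constancy is no check. A changed minimum leaves the ratio as it is and a pseudocount keeps its sign. TPM and median scaling shift it by far less than the 1.5-fold threshold. Without an FPKM minimum, 9 carriers were higher in GFP-high cells by 1.5-fold and 18 were higher in GFP-low cells, and with a 2-fold minimum 1 (*Slc7a8*) and 3 (*Slc7a1*, *Slc7a5* and *Slc38a1*) were. Under the other alternatives the counts were 3 to 5 and 8 to 13. *Slc2a1* lost its call on the TPM scale, *Slc2a8* with either pseudocount and with scaling to the median ratio, and *Slc38a1* and *Slc7a4* with a minimum of 10 or of 5 in both libraries. The TPM scale lowers every log2 ratio by 0.10, and over all entries it moved the calls from 1020 and 958 to 807 and 1219. With 5 FPKM asked of both libraries, they were 777 and 633. Over all entries the calls were 2541 and 2483 without a minimum, 448 and 467 at 2-fold, and 1540 and 1563 with a minimum of 1 FPKM. The median log2 ratio of the carriers ranged from −0.40 on the TPM scale to −0.20 with a pseudocount of 1, beside −0.30 as reported. Carriers under 0.1 FPKM rest on a few reads.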
